A study of Mus musculus with 40 samples.

Results

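PAX5-Δ2-6 was compared with wild-type PAX5 (PAX5-WT) across 17097 genes, each measured by 1 probe set, in 13 of the 40 arrays of the series. The members are the arrays whose titles name either construct, 6 for PAX5-Δ2-6 and 7 for PAX5-WT. Every array holds total RNA of J558LuM, a mouse plasmacytoma line, that is, a tumour line of plasma cells, after its own transduction with a vector carrying the construct. The 7 MIR arrays, of J558LuM cells transduced with the empty vector, are given beside them, and the other constructs of the series entered only as further groups that help to estimate the spread and the batch terms. The labels give the altered construct only by its name and do not spell out what Δ2-6 stands for. The labels give no treatment or time for the cells, and all arrays share 1 cell line, so the tests weigh only how much separate transductions of it vary.

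The values are log2 signals, so a difference of 1 is a doubling, and differences are PAX5-Δ2-6 minus PAX5-WT. All PAX5-Δ2-6 arrays were on plate 2, while 4 PAX5-WT arrays were on plate 1 and 3 on plate 2. Both groups were in both RNA isolation batches, with 3 PAX5-Δ2-6 and 4 PAX5-WT arrays in batch 1 and 3 of each in batch 2. The transductions carry other numbers in each group. In isolation batch 1 the PAX5-Δ2-6 arrays have the numbers 4 to 6 and the PAX5-WT arrays 36 to 43. In batch 2 they have the numbers 53 to 57 and 61 to 63. Whatever changed between these runs of transductions cannot be told apart from the construct within a batch. Medians of the 13 arrays lay between 4.22 and 4.27, and each array correlated with the mean of its group's other arrays at r = 0.9972 to 0.9981 across genes. Precision is limited by the number of arrays, and the median standard error (SE) of a difference was 0.086.

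PAX5 is a transcription factor that binds DNA through a paired domain and sets the identity of B cells: it switches on genes such as those of the B cell receptor complex and holds genes of other lineages and of plasma cells down. It is switched off when a B cell becomes a plasma cell. A plasmacytoma line is therefore a setting in which added PAX5 acts on a cell that has left the B cell programme.

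The cells carried high levels of plasma cell markers with both constructs. Xbp1, the transcription factor of the secretory programme, had a mean of 13.24 with PAX5-Δ2-6 and 13.16 with PAX5-WT. For Irf4 the means were 10.93 and 10.78, and for Tnfrsf17, the plasma cell survival receptor BCMA, 10.16 and 9.93. Among B cell markers, Cd79a, Cd22 and Cd72 stayed near the array median in both groups, with means of 4.44 and 4.20 for Cd79a, 4.01 and 4.07 for Cd22 and 3.98 and 4.09 for Cd72. Cd79b was bright in both, with 9.98 and 10.15. The difference for Cd79a, 0.21 ± 0.09, did not pass the test (adjusted p = 0.185).

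Pax5 itself was measured by 1 probe set, and the sources used here do not say whether its target lies within the transduced constructs. Its level was between 4.68 and 5.90 (median 5.00) with PAX5-Δ2-6, between 4.36 and 5.14 (median 4.81) with PAX5-WT and between 4.19 and 4.63 (median 4.51) with MIR. All PAX5-Δ2-6 arrays were above all MIR arrays, whereas PAX5-WT overlapped both. The difference from PAX5-WT, 0.50 ± 0.17, did not pass the test (adjusted p = 0.0672), and neither did the difference of 0.80 ± 0.17 from MIR (adjusted p = 0.218). Pax5 passed the test against PAX5-WT when PAX5-Δ2-6 replicate 1 (adjusted p = 0.0447), PAX5-Δ2-6 replicate 3 (0.0273) or PAX5-WT replicate 3 (0.045) was left out. These levels are at the dim end of the scale and do not measure how much of either construct was made.

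With PAX5-Δ2-6, the cells had less RNA of Cd36, a scavenger receptor that takes up fatty acids, of Ms4a1, which encodes the B cell antigen CD20, of the inhibitory receptors Fcgr2b and Siglecg and of the transcription factors Ets1 and Spib. As in any bulk sample, fewer cells with a transcript and less of it per cell cannot be told apart. The cells had more of Asb9, a substrate adaptor of a ubiquitin ligase, of the oncogene Mycn and of the integrin chain Itga4. Called genes are those with a limma p under 0.05 after Benjamini-Hochberg adjustment over all genes, and 1195 of 17097 genes, 6.99%, were called. Of these 481 (2.81% of all genes) were higher with PAX5-Δ2-6 and 714 (4.18%) lower. Most called differences were small, with a median of 0.29 among the higher and -0.34 among the lower genes. A minimum of 1.5-fold left 174 genes (1.02%), 42 higher and 132 lower. At least 2-fold were 13 and 37, and at least 4-fold 2 and 9, so the largest differences lay on the lower side.

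In 304 genes (1.78%) every PAX5-Δ2-6 array was below every PAX5-WT array in the deposited values, and in 212 (1.24%) every one was above. Of these, 270 and 174 were called. The count of 1195 depends on the arrays used and on how the transductions are treated. It was 588 in isolation batch 1 alone, 706 in batch 2 alone and 589 (3.45%) on plate 2 alone, fits with fewer arrays. With 3 series of transduction numbers, split after 9 and 44, in place of the isolation batches it rose to 1596. It fell to 58 when 4 series of transduction numbers replaced the isolation batches. The 4 series are 1 to 9, up to 44, up to 57 and up to 66, and the median SE of that fit was 0.185.

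**Figure D1:**
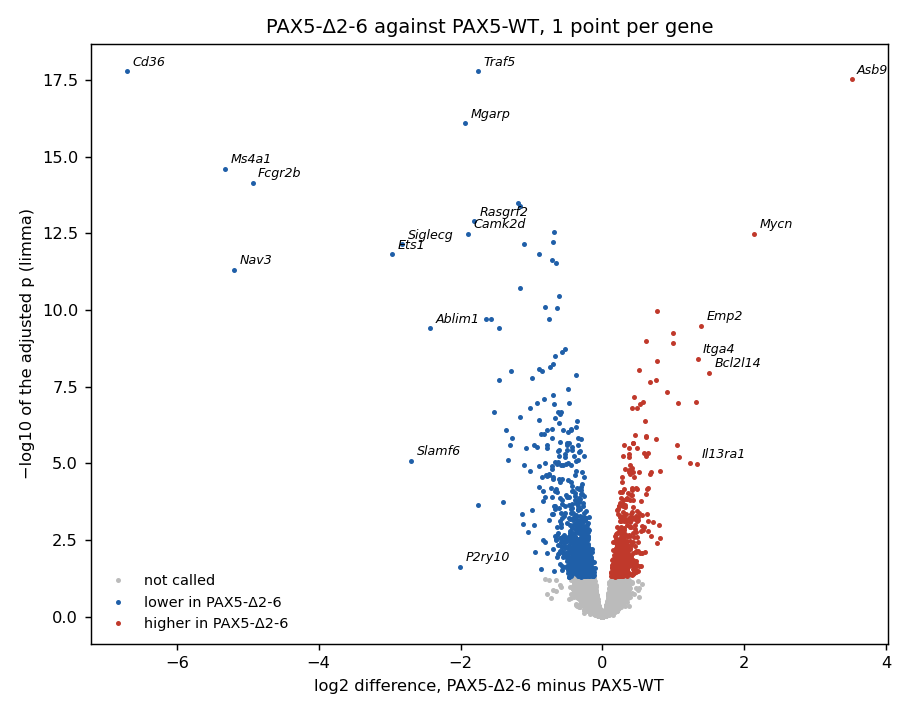
Difference between PAX5-Δ2-6 and PAX5-WT (log2, horizontal) against -log10 of the limma adjusted p (vertical) for 17097 genes, 1 point a gene, blue where called lower, red where called higher and grey where not called. The points far from 0 are mostly on the left, led by Cd36, Ms4a1, Nav3 and Fcgr2b, while Asb9 and Mycn stand out on the right.

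The upstream sequences below belong to the 2 genes furthest below PAX5-WT and the gene furthest above it for which a promoter sequence was given. They are the 250 bases before the RefSeq start (GRCm38.p6), 5′ to 3′ on the gene's strand, and capitals mark any GGAAGT, the core bound by ETS factors such as Ets1 and Spib, on either strand.
Cd36, chr5:17835897-17836146 (- strand): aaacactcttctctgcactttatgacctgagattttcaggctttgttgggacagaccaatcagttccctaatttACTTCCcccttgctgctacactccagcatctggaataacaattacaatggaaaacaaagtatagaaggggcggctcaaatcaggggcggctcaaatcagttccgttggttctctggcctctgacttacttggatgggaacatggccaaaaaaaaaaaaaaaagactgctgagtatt
Fcgr2b, chr1:170976072-170976321 (- strand): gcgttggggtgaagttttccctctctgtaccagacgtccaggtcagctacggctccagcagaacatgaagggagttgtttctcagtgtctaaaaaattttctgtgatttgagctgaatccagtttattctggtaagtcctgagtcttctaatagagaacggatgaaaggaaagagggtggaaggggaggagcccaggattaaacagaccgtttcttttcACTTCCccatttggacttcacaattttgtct
Asb9, chrX:164497653-164497902 (+ strand): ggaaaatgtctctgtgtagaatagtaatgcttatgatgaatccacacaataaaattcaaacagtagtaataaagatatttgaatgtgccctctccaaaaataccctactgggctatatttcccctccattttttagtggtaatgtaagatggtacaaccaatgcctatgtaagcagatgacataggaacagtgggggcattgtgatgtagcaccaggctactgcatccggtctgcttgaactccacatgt
Cd36 holds 1 match, whose first base is 176 bases before the start, and Fcgr2b holds 1 match, 31 bases before it. Asb9 holds 0. GGAAGT, searched on both strands, occurs in 19.99% of 27025 promoters, in 21.7% of those of the 13605 tested genes that have one, in 22.6% of 579 called lower and in 23.9% of 389 called higher. The paired domain cores GCGTGAC and GCNTGAC, the second of which includes the first, are in none of these 3 windows. GCNTGAC occurs in 9.99% of the promoters of tested genes, in 12.1% of those called lower and in 11.6% of those called higher. A match is a run of letters, not a measured binding site.

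Cd36 lay between 3.29 and 3.84 (median 3.71) in the 6 PAX5-Δ2-6 arrays and between 9.86 and 10.65 (median 10.37) in the 7 PAX5-WT arrays. It was thus near the bottom of the scale in the first group and far above the array median in the second, 104-fold lower with PAX5-Δ2-6 (95% interval 67.7 to 160). The difference was -6.70 ± 0.31 (SE, n = 6 and 7; adjusted p = 1.65e-18). Ms4a1 lay between 3.49 and 4.02 (median 3.68) and between 8.49 and 9.73 (median 9.23). That is 39.8-fold lower, with a difference of -5.32 ± 0.31 (adjusted p = 2.48e-15). Nav3, a neuron navigator protein that binds microtubule ends, lay between 3.76 and 4.41 (median 4.00) and between 8.43 and 10.09 (median 8.84). It differed by -5.19 ± 0.41 (adjusted p = 4.90e-12). Where a gene is this dim in 1 group, background signal sets how large a fold the array can show.

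Fcgr2b, an Fc receptor that inhibits B cells, lay between 4.05 and 5.02 (median 4.43) with PAX5-Δ2-6 and between 8.75 and 10.13 (median 9.60) with PAX5-WT, a difference of -4.93 ± 0.30 (adjusted p = 7.22e-15). Siglecg, a sialic acid receptor that dampens B cell receptor signals, lay between 4.35 and 4.91 (median 4.62) and between 7.02 and 7.79 (median 7.27). Its difference was -2.82 ± 0.21 (adjusted p = 7.08e-13). Slamf6, a self-binding receptor of lymphocytes, differed by -2.69 ± 0.40 (adjusted p = 8.30e-06) and P2ry10, a G protein-coupled receptor for lysophosphatidylserine, by -2.01 ± 0.57 (adjusted p = 0.024). Both had PAX5-WT arrays that fell apart by isolation batch, described below. Traf5, an adaptor of TNF receptors, was 3.37-fold lower with little spread, between 6.61 and 7.00 (median 6.69) against values between 8.31 and 8.66 (median 8.38), a difference of -1.75 ± 0.08 (adjusted p = 1.65e-18). Rasgrf2, an exchange factor for Ras, differed by -1.81 ± 0.12 (adjusted p = 1.26e-13), and Camk2d, a calmodulin-dependent kinase, by -1.90 ± 0.13 (adjusted p = 3.32e-13). Of the 3 probe sets of Rasgrf2, 1 was called.

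Of the transcription factors, Ets1 lay between 3.00 and 4.16 (median 3.44) and between 6.00 and 6.76 (median 6.23), a difference of -2.96 ± 0.22 (adjusted p = 1.55e-12). Spib, an ETS family factor of B cells, lay between 4.24 and 5.01 (median 4.65) and between 5.84 and 7.15 (median 6.49), with -1.76 ± 0.32 (adjusted p = 2.23e-04). The groups did not overlap in either gene, and Ets1 was at or under the array median in all PAX5-Δ2-6 arrays. The remaining genes among the 15 furthest below PAX5-WT were Ablim1, Mgarp and Tcp11l2. Ablim1, an actin-binding LIM protein, differed by -2.43 ± 0.23 (adjusted p = 3.97e-10). Mgarp, a mitochondrial protein, differed by -1.94 ± 0.10 (adjusted p = 8.28e-17) and Tcp11l2 by -1.64 ± 0.15 (adjusted p = 2.00e-10). In each of the 15 all PAX5-Δ2-6 arrays were below all PAX5-WT arrays.

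**Figure D2:**
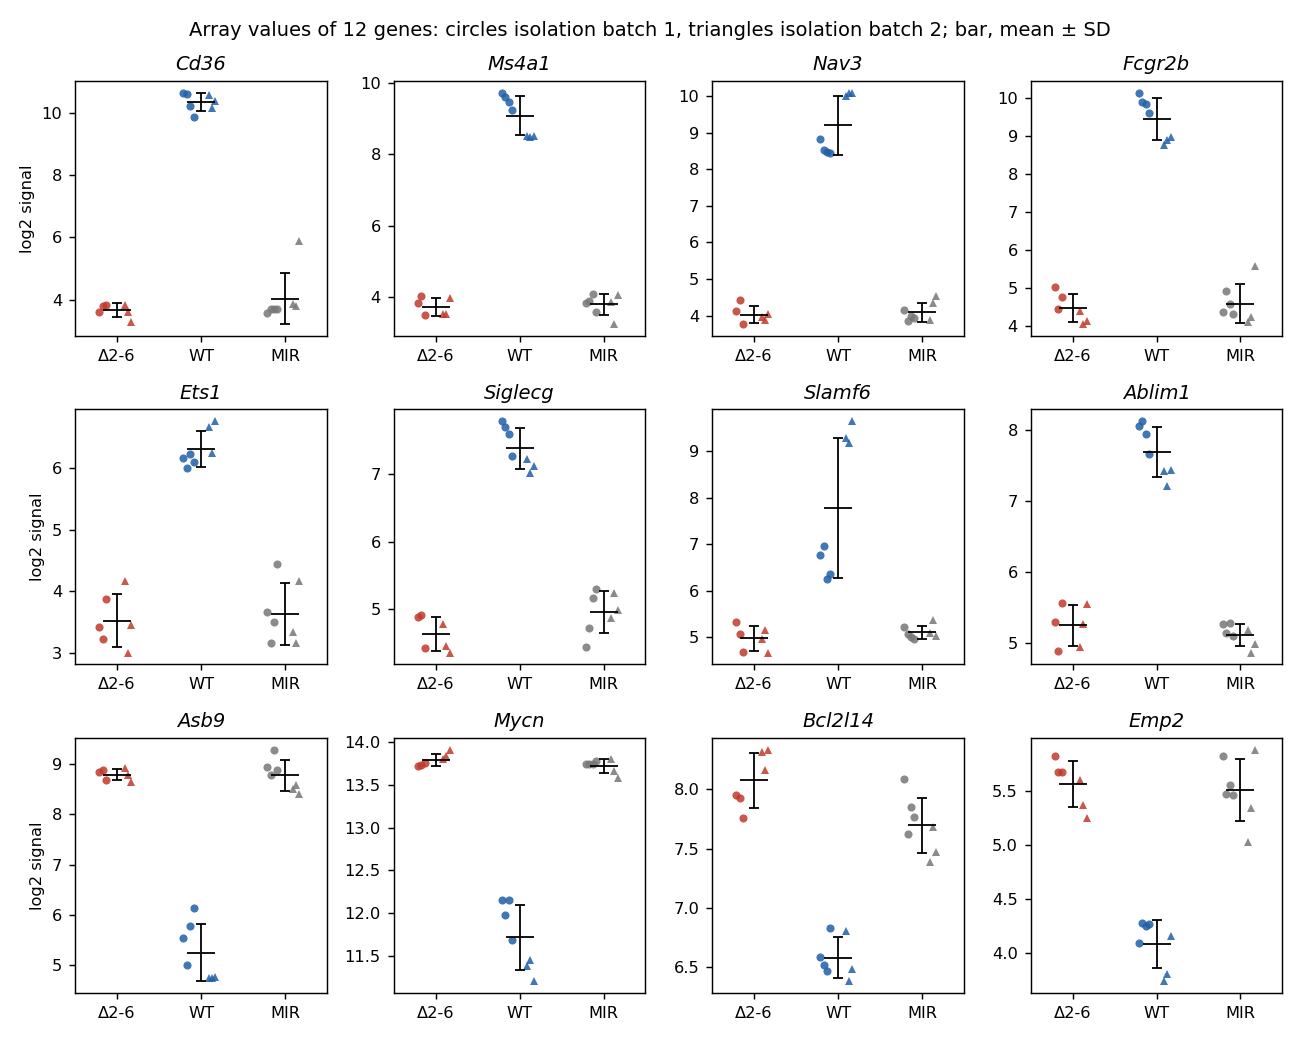
Log2 signal (vertical) of 12 genes in each array of PAX5-Δ2-6, PAX5-WT and MIR. Circles are arrays of isolation batch 1, triangles those of batch 2, and bars the mean ± SD. In Cd36, Ms4a1 and Fcgr2b the PAX5-Δ2-6 points sit at the level of the MIR points and below all PAX5-WT points, and in Asb9 and Mycn at the MIR level and above all PAX5-WT points.

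On the other side, Asb9 lay between 8.64 and 8.92 (median 8.82) with PAX5-Δ2-6 and between 4.75 and 6.13 (median 5.00) with PAX5-WT. It was 11.4-fold higher (95% interval 9.04 to 14.5), a difference of 3.52 ± 0.17 (adjusted p = 2.94e-18). Mycn, a MYC family transcription factor, lay between 13.72 and 13.91 (median 13.78) and between 11.20 and 12.15 (median 11.68), a difference of 2.14 ± 0.15 (adjusted p = 3.32e-13). This is the probe set that stands for Mycn, and it is among the brightest on the arrays. The other 2 probe sets of Mycn were dim in PAX5-Δ2-6, with means of 3.47 and 3.98, and differed by -0.02 and -0.13, so the higher level rests on 1 of 3 probe sets.

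Itga4, the α4 integrin chain that tethers lymphocytes and plasma cells to stroma, was between 7.58 and 8.18 (median 7.83) and between 6.01 and 6.95 (median 6.51) and differed by 1.34 ± 0.14 (adjusted p = 3.90e-09). All 5 of its probe sets were higher, 4 of them past the test. Il13ra1, a receptor chain for the cytokines IL-4 and IL-13, differed by 1.33 ± 0.20 (adjusted p = 1.02e-05). Emp2, a tetraspan membrane protein, differed by 1.40 ± 0.13 (adjusted p = 3.30e-10) and Klrk1, the activating receptor NKG2D, by 1.08 ± 0.16 (adjusted p = 6.07e-06). Klra17, a lectin-like receptor of the Ly49 family, was higher by 1.05 ± 0.14, and Ly6c1, a surface antigen of plasma cells and monocytes, by 1.00 ± 0.09. The lectin-like and Ly6 genes belong to families of close copies, between which a probe set may not discriminate. Sla, a Src-like adaptor that restrains antigen receptor signals, was higher by 1.00 ± 0.10.

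Bcl2l14, a BCL-2 family protein, was 2.84-fold higher (95% interval 2.26 to 3.56). B3galnt1, a glycosyltransferase, differed by 1.32 ± 0.15 and Usp2, a deubiquitinase, by 0.91 ± 0.10. Spag6, a protein of the ciliary axoneme, differed by 1.24 ± 0.19, the predicted gene Gm9706 by 1.06 ± 0.13 and Mylpf, a muscle myosin light chain, by 0.81 ± 0.13. The largest adjusted p among these 15 was 1.75e-05. In all 15 of these genes the arrays of the groups did not overlap. Of the 30 largest differences in both directions, 16 belong to genes with several probe sets. In 12 of the 16 all probe sets differed in the same direction, in 5 all of them were called, and in 0 was a probe set called the other way.

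Set beside the empty vector, the altered construct gave 0 called genes of 17097, although 1308 had an unadjusted p under 0.05 and the smallest adjusted p was 0.218. PAX5-WT against the same MIR arrays gave 1099 (6.43%), 613 higher (3.59%) and 486 lower (2.84%). These comparisons and that of PAX5-Δ2-6 with PAX5-WT share arrays, so their values are set side by side and not against each other. For Cd36 the difference from MIR was 6.32 with PAX5-WT and -0.39 with PAX5-Δ2-6, for Ms4a1 5.29 and -0.03, and for Fcgr2b 4.85 and -0.08. For Asb9 it was -3.53 and -0.01, and for Mycn -2.01 and 0.13. Over the 30 genes above, the size of the PAX5-Δ2-6 difference from MIR was at most 0.47, in Spag6, and the smallest adjusted p was 0.551. For Cd36 the 95% interval of that difference ran from -1.01 to 0.24, and 1 MIR array, at 5.89, stood above the rest of its group.

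A count of 0 does not show that PAX5-Δ2-6 and the empty vector act alike, and it held in some fits only. It was 4 within isolation batch 1, 56 within batch 2 and 677 with 3 series of transduction numbers, split after 9 and 44, in place of the isolation batches. It was 1 when PAX5-Δ2-6 replicate 3 was left out or when only these groups were fitted. It stayed 0 without batch terms, on plate 2 alone, with 4 series and without any other single array of these groups. The PAX5-Δ2-6 and MIR arrays are parted by transduction number in the same way as PAX5-Δ2-6 and PAX5-WT, with the numbers 34 to 38 and 58 to 60 for MIR. The fit with 4 series therefore hardly estimates their difference either.

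**Figure D3:**
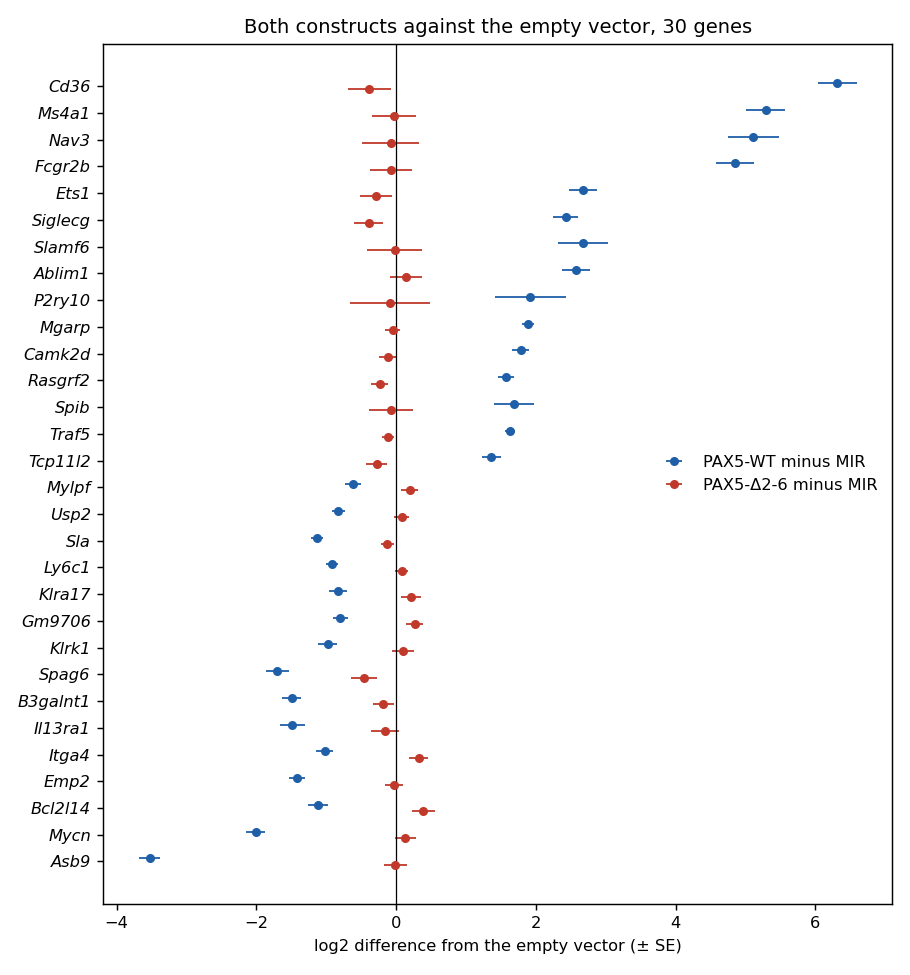
Differences from MIR (log2) of the named genes, PAX5-WT and PAX5-Δ2-6 side by side, for the 30 genes with the largest differences between them, with bars of 1 SE. The PAX5-WT points reach 6.32 for Cd36 and -3.53 for Asb9, while none of the PAX5-Δ2-6 points among the 30 largest differences is farther than 0.47 from 0.

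Gene lists were counted against the background of 6.99% called, with a median difference of -0.00268 over all genes. That background includes dim genes. Genes above the median level, fitted alone and with an adjustment of their own, gave 1464 calls. In that fit calls were thus more frequent than over all genes. A share above 6.99% in a list of bright genes is thus not by itself a trait of the list. Over all lists together 86 genes were called, and 14 were when 4 series of transduction numbers replaced the isolation batches, so most list calls given below were not made in that fit. As described above, that fit can hardly estimate the difference between these groups. Of 21 measured inhibitory receptors and phosphatases, 7 were lower with PAX5-Δ2-6 and 0 higher (list median -0.12). Beside Fcgr2b and Siglecg these were Lair1, a collagen-binding inhibitory receptor (-1.52 ± 0.19, adjusted p = 2.17e-07), Ptpn22 (-1.16), a phosphatase that damps antigen receptor signals, Fcrla (-1.30), an Fc receptor-like protein, Ptpn6 (-0.36 ± 0.08, adjusted p = 0.00299), the phosphatase SHP-1, and Inpp5d (-0.26), the lipid phosphatase SHIP-1. Lair1 lay between 4.46 and 5.01 (median 4.67) with PAX5-Δ2-6 and between 5.66 and 6.82 (median 6.04) with PAX5-WT.

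In B cell receptor signalling 26 genes were measured, of which 2 were higher and 5 lower (median -0.10). The higher were Pik3r1, the regulatory subunit of PI 3-kinase (0.43 ± 0.10, adjusted p = 0.00383), and Cd81 (0.24), a tetraspanin. The kinase Btk (-0.27) and the exchange factor Vav1 (-0.27) were lower, with Fcgr2b, Ptpn6 and Inpp5d of the inhibitory list. Apart from Fcgr2b, no called difference in this list exceeded that of Pik3r1 in size. Of 21 B cell surface antigens 5 were lower and 0 higher: Ms4a1, Slamf6, the tetraspanin Cd37 (-0.45 ± 0.10, adjusted p = 0.00328), the costimulatory ligand Cd80 (-0.42) and Tnfrsf13c (-0.25), the BAFF receptor.

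Of 16 genes of MHC class II presentation 5 were lower and 0 higher, with a list median of -0.23. H2-DMa, a chain of the chaperone that loads peptide onto class II, lay between 4.42 and 4.77 (median 4.56) and between 5.04 and 6.40 (median 5.82), a difference of -1.36 ± 0.18 (adjusted p = 8.15e-07). The other probe set of H2-DMa differed by -0.20 and was not called. The partner chains of H2-DMa were lower by smaller amounts. H2-DMb2 differed by -0.55 ± 0.14 (adjusted p = 0.0115) and H2-DMb1 by -0.41 ± 0.10 (adjusted p = 0.00613). The means of H2-DMb1 were under the array median in both groups, 3.70 with PAX5-Δ2-6 and 4.17 with PAX5-WT. Rfx5, which binds class II promoters, differed by -0.29 and Ctss, the protease that trims the invariant chain, by -0.19. The class II chain H2-Aa was -0.78 ± 0.33 and did not pass (adjusted p = 0.183).

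Among 23 transcription factors of the B lineage 5 were lower and 0 higher. Beside Ets1 and Spib these were Id3, an inhibitor of E proteins (-0.69 ± 0.21, adjusted p = 0.0323), Ikzf1, which encodes Ikaros (-0.38), and Mef2c (-0.34). In the list of known partners and co-repressors of PAX5, 16 genes, 2 were higher and 4 lower. The co-repressors Tle1 (-0.39 ± 0.09, adjusted p = 0.00322) and Tle4 (-0.18) were lower together with Ets1 and Rb1, and Tle6 (0.27) and the acetyltransferase Kat2b (0.29) were higher.

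Textbook targets of PAX5 from B cells gave calls in both directions. Of 26 genes that PAX5 is known to activate in B cells 5 were lower with PAX5-Δ2-6 and 2 higher, with a median of -0.0029. Siglecg, Slamf6, Spib, Id3 and Plekha2 (-0.19) were lower, while Mycn and the kinase Prkd2 (0.41) were higher, against the name of the list. Of 27 genes that PAX5 is known to repress 5 were higher and 2 lower (median 0.02). Itga4, Ly6d (0.63), the adaptor Grap2 (0.62), Prdm1 and Xbp1 (0.13) were higher. Fcgr2b and the cytokine receptor Flt3 (-1.16 ± 0.14, adjusted p = 3.11e-07) were lower, again against the name of the list. Flt3 lay between 5.00 and 5.77 (median 5.25) with PAX5-Δ2-6 and between 5.89 and 7.13 (median 6.68) with PAX5-WT.

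Of 15 genes of plasma cell identity 4 were higher with PAX5-Δ2-6 and 0 lower (median 0.07). Ly6c1 was the largest, followed by the elongation factor Ell2 (0.30 ± 0.07, adjusted p = 0.00248), Prdm1, which encodes Blimp-1 (0.19 ± 0.06, adjusted p = 0.0347), and Xbp1. Prdm1 was between 8.81 and 9.39 (median 9.09) and between 8.68 and 9.17 (median 8.81), groups that overlap, and with 4 series of transduction numbers it was -0.13 (adjusted p = 0.919). None of the 5 measured immunoglobulin genes was called, and 0 had an unadjusted p under 0.05. In the unfolded protein response and secretion, 25 genes, 3 were higher and 2 lower. The disulfide isomerase Pdia4 (0.40 ± 0.06, adjusted p = 1.86e-05), the oxidase Ero1a (0.32 ± 0.06, adjusted p = 2.23e-04) and Edem1 (0.28) were higher, and Ero1b (-0.29 ± 0.06, adjusted p = 0.00235) and Sec61b (-0.20) lower. Ero1a and Ero1b each had 3 probe sets, of which 1 was called.

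**Figure D4:**
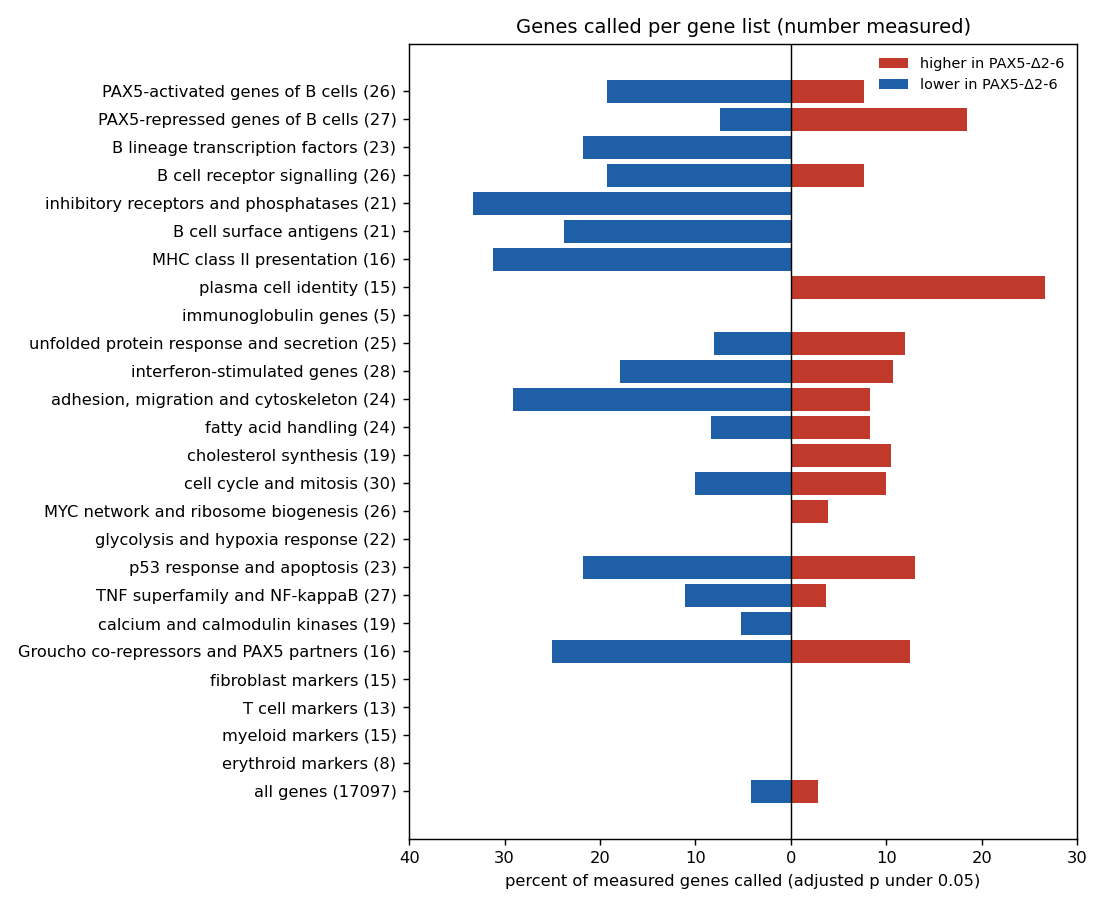
Percent of the measured members of each gene list that were called higher (right) or lower (left) with PAX5-Δ2-6, beside the same shares over all genes, 2.81% and 4.18%. Inhibitory receptors, MHC class II, B cell surface antigens and B lineage transcription factors have calls on the lower side and 0 on the higher side, and plasma cell identity the reverse.

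Metabolic lists held few calls beside Cd36. Of 24 genes of fatty acid handling 2 were higher and 2 lower. Plin2, which coats lipid droplets, was lower (-0.35 ± 0.10, adjusted p = 0.0288), and the elongase Elovl5 (0.24 ± 0.05, adjusted p = 7.86e-04) and Acsl5 (0.13), which activates fatty acids, were higher. In cholesterol synthesis 2 of 19 were higher, Sc5d (0.25 ± 0.05, adjusted p = 0.0018) and Cyp51 (0.22 ± 0.05, adjusted p = 0.00321), and 0 lower. Sc5d and Cyp51 each had 3 probe sets, of which 1 was called. None of 22 genes of glycolysis and the hypoxia response was called, where 5 had an unadjusted p under 0.05. Of 26 genes of the MYC network and ribosome biogenesis Mycn was the 1 called, with a list median of 0.03.

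In the cell cycle 3 of 30 genes were higher and 3 lower. The phosphatase Cdc25b, which starts mitosis, lay between 7.51 and 8.25 (median 7.97) and between 8.64 and 9.40 (median 8.97) and was lower by the largest amount (-1.15 ± 0.10, adjusted p = 1.97e-11). Rb1 (-0.61 ± 0.09, adjusted p = 5.96e-06) and the kinase inhibitor Cdkn1b (-0.33 ± 0.10, adjusted p = 0.0412), which both hold back entry into the cycle, were lower too, and Ccnd3 (0.33), Tyms (0.27) and Aurka (0.21) higher. Of 23 genes of the p53 response and apoptosis 3 were higher and 5 lower. The stress genes went both ways, Sesn2 (0.56 ± 0.11, adjusted p = 4.80e-04) higher and Sesn1 (-0.58 ± 0.09, adjusted p = 1.12e-05) lower. Of the 2 probe sets of Sesn2, 1 was called, and the other differed by 0.16 ± 0.20. All 3 probe sets of Sesn1 were called. Pmaip1, which encodes the killer protein NOXA, was higher (0.58 ± 0.12, adjusted p = 0.00147) with the survival protein Bcl2l1 (0.28), while the survival protein Bcl2 (-0.52), the killers Bmf (-0.55) and Bcl2l11 (-0.45) and Casp9 (-0.29) were lower.

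Interferon-stimulated genes also split, with 3 of 28 higher and 5 lower. Irgm1, a GTPase of cell defence, lay between 6.45 and 7.03 (median 6.70) and between 7.59 and 8.32 (median 8.01) and was lower (-1.19 ± 0.08, adjusted p = 3.26e-14), whereas the nucleic acid sensor Zbp1 was higher (0.76 ± 0.08, adjusted p = 1.98e-08). Epsti1 was called just under the threshold (-0.47 ± 0.15, adjusted p = 0.0496), and with it Gbp3 (-0.45), Irf7 (-0.39) and Ddx58 (-0.29) were lower and Igtp (0.32) and Psmb8 (0.13) higher. In adhesion, migration and cytoskeleton 2 of 24 were higher and 7 lower. This list, like the others, was chosen with earlier results of these data known, so its count is no independent evidence. Itga4 and the hyaluronan receptor Cd44 (0.40) were the higher ones. Nav3 and Ablim1 were lower with the formin Fhod3 (-0.99), Rhoh (-0.66), Coro1a (-0.59), S1pr2 (-0.55) and Icam2 (-0.16).

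Of 27 genes of the TNF superfamily and NF-κB 1 was higher and 3 lower. The receptor Tnfrsf18, known as GITR, was higher (0.53 ± 0.06, adjusted p = 1.19e-07), and Traf5, Tnfrsf13c and Tnfaip3, the NF-κB brake A20 (-0.45 ± 0.10, adjusted p = 0.00199), were lower. Tnfaip3 was under the array median in both groups, with means of 3.74 with PAX5-Δ2-6 and 4.19 with PAX5-WT. Its other probe set differed by 0.0006. With 4 series of transduction numbers Tnfaip3 was 0.0042 (adjusted p = 0.999). Camk2d was the 1 called among 19 calcium and calmodulin kinases. Markers of other cell types gave 0 calls among 15 fibroblast, 13 T cell, 15 myeloid and 8 erythroid genes, with 0, 1, 1 and 1 at an unadjusted p under 0.05. The mean level of the fibroblast list was 3.67 to 3.80 with PAX5-Δ2-6 and 3.69 to 3.85 with PAX5-WT, and that of the myeloid list 4.39 to 4.52 and 4.39 to 4.46, so both overlapped between the groups and lay near or under the array median. Means of the T cell list were 4.74 to 4.83 and 4.73 to 4.89, and of the erythroid list 5.13 to 5.27 and 5.03 to 5.26.

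Calls near the threshold depended on single arrays. Cdkn1b was not called without PAX5-Δ2-6 replicate 2, 3, 4, 5 or 6 or PAX5-WT replicate 2, 4, 5 or 7 (adjusted p of Cdkn1b up to 0.124). Epsti1 was lost without PAX5-Δ2-6 replicate 3, 4, 5 or 6 or PAX5-WT replicate 1, 2, 4, 6 or 7 (up to 0.142). Id3 was lost without PAX5-Δ2-6 replicate 4 or 5 or PAX5-WT replicate 1, 3, 4 or 7 (up to 0.0989), and Plin2 without PAX5-Δ2-6 replicate 4, 5 or 6 or PAX5-WT replicate 6 or 7 (up to 0.0876). Prdm1 was lost without PAX5-Δ2-6 replicate 4, 5 or 6 or PAX5-WT replicate 1, 2 or 7 (up to 0.13). Except for P2ry10 and Pax5, the other genes of the naming rule, each tested in this way, stayed on its side of the threshold whichever single array of these groups was left out.

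Both isolation batches were then read separately. In batch 1, 588 genes were called (3.44%), 222 higher (1.3%) and 366 lower (2.14%). Batch 2 gave 706 (4.13%), 298 higher (1.74%) and 408 lower (2.39%). Called in both in the same direction were 226, 38.4% of the first and 32.0% of the second, 77 of them higher and 149 lower. For 1 gene, Ppp1r17, which encodes a phosphatase inhibitor, the direction was opposite, with 0.86 in batch 1 and -0.79 in batch 2. Of the 15 genes furthest below PAX5-WT, 15 were called in both batches, and of the 15 furthest above it 14. Mylpf was the exception, with an adjusted p of 0.0569 in batch 1. These genes were picked for their size in the fit that pools the same arrays, so their calls in a part of the arrays are no independent evidence. On plate 2 alone 14 and 15 were called, without P2ry10 (adjusted p = 0.106). With 4 series of transduction numbers, a fit that can hardly estimate this difference, 11 and 4 of them were.

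Whether the difference between the constructs itself differed between the batches was tested with a group by batch term, and 34 genes were called (0.199%), 16 (0.0936%) with a larger and 18 (0.105%) with a smaller value in batch 2. At an unadjusted p under 0.05 there were 1753. Of the 34, 11 were also called in the comparison over both batches. The count was 6 without PAX5-WT replicate 7, 8 without PAX5-Δ2-6 replicate 1 or 6, and 11 to 20 without PAX5-Δ2-6 replicate 2, 3, 4 or 5 or PAX5-WT replicate 4 or 6. For Slamf6 the arrays of PAX5-WT had 6.78, 6.96, 6.25 and 6.37 in batch 1 and 9.29, 9.17 and 9.65 in batch 2. The PAX5-Δ2-6 arrays were between 4.66 and 5.32 (median 5.01) over both batches. Fits within each batch gave a difference of -1.38 in batch 1 and -4.51 in batch 2. The joint fit with the group by batch term, which estimates the plate effect over all arrays and so does not return exactly the gap between those values, gave a change of -2.86 ± 0.35 (adjusted p = 4.78e-05). Between batches the PAX5-WT arrays shifted by 2.76 in that fit and the PAX5-Δ2-6 arrays by -0.10.

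P2ry10 had the same shape. PAX5-WT was at 4.12, 4.55, 4.25 and 3.56 in batch 1 and 6.83, 5.88 and 6.68 in batch 2, against between 3.09 and 3.38 (median 3.16) with PAX5-Δ2-6. In the joint fit the difference changed by -2.49 ± 0.52 (adjusted p = 0.0312). Without PAX5-WT replicate 7 the call for P2ry10 over both batches was lost (adjusted p = 0.104). In Mycn the PAX5-WT arrays were at 12.15, 11.98, 12.15 and 11.68 in batch 1 and 11.38, 11.45 and 11.20 in batch 2, while PAX5-Δ2-6 stayed between 13.72 and 13.91 (median 13.78). Its difference was 1.78 and 2.63 in the fits within batches, and the joint fit gave a change of 0.78 ± 0.13 (adjusted p = 0.00555). For Lair1 the values within batches were -0.98 and -2.22 and the change -1.11 ± 0.25 (adjusted p = 0.0436).

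Within 1 construct the batches differed as well. Between isolation batches 936 genes (5.47%) were called among the PAX5-Δ2-6 arrays and 1127 (6.59%) among the PAX5-WT arrays. Since each batch holds its own transductions, isolation and transduction cannot be told apart in these counts. A further 16243 probe sets without a single gene name were tested separately. Of them 334 were called (2.06%), 128 higher (0.788%) and 206 lower (1.27%) with PAX5-Δ2-6.

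**Figure D5:**
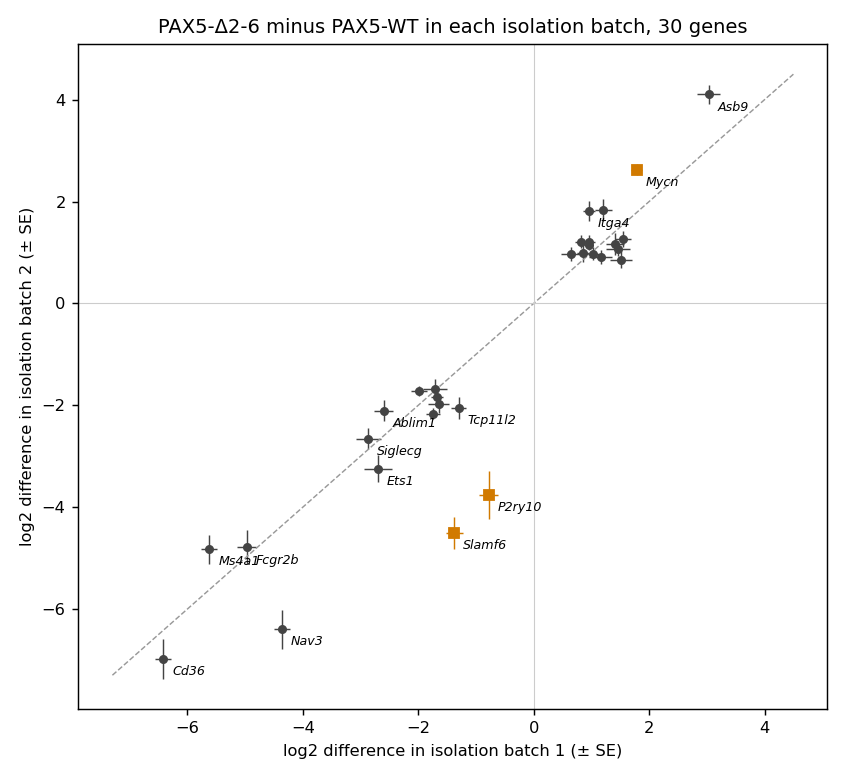
Difference between PAX5-Δ2-6 and PAX5-WT (log2) in isolation batch 1 (horizontal) and batch 2 (vertical) for the 30 genes with the largest differences. Most points lie near the line of equal values, and the orange squares mark Slamf6, P2ry10 and Mycn, whose difference changed between the batches at an adjusted p under 0.05.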

How the data were processed

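The 40 arrays are 3′ expression arrays of RNA from transduced J558LuM cells. Each array has 1 deposited log2 value for each of 45141 probe sets. RMA produced them, per the submitters' processing notes. The version of RMA was not given in the sources, and nothing was normalized again in the main fit. A single gene is named by 28898 probe sets, several genes by 551 and none by 15692. Where a gene had more than 1 probe set, the brightest on average was taken, giving 17097 genes, with symbols updated through gene IDs where RefSeq's table (GRCm38.p6) held them, for 16937 genes. The other 16243 probe sets had a fit of their own.

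The labels give the group, plate, isolation batch and transduction number of each array. All arrays entered a limma 3.58.1 fit (R 4.3.3, statmod 1.5.0) with terms for 6 groups, 2 plates and 2 isolation batches, leaving 32 residual degrees of freedom, and SEs are limma's moderated ones. Benjamini-Hochberg adjustment ran over all genes of a comparison. Levels per group are the deposited values, with no batch removed.

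The members and the 25 gene lists were chosen with earlier results of these data known. The lists hold 536 genes, of which 461 were measured, 7 through a platform symbol or synonym, and some genes stand in several lists. Named were up to 15 called genes per direction with the largest difference, up to 3 called members per list, and Pax5 and Cd79a; other genes were named after their values were seen. The method was tested on simulated data. Equal replicate numbers did not pair arrays: deviations of equally numbered arrays correlated at -0.02 to 0.15. Alternatives changed the batch terms, the arrays, the scaling, the probe set rule, filters and limma's settings, and are given in the closing section. Leaving out arrays in the batch by group test, its fit without a plate term and the alternatives for PAX5-Δ2-6 minus MIR were added after seeing the data.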

Additional observations from a re-analysis of the deposited data

Results flagged for a closer look

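In 4 of 124 groups of arrays checked, 1 array stood far from the rest of its group, where chance flags about 1 group in 20. Il13ra1 was at 7.59 in PAX5-Δ2-6 replicate 4, with the nearest array at 7.40. Ly6c1 was at 8.65 in PAX5-Δ2-6 replicate 1, with the nearest at 8.88. H2-DMb1 was at 4.60 in PAX5-WT replicate 1, with the nearest at 4.18, and Plin2 at 7.92 in PAX5-WT replicate 5, with the nearest at 8.24. In Il13ra1, Ly6c1 and H2-DMb1 the groups did not overlap even so.

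The difference between the constructs differed between isolation batches by a tested term in 4 of the named genes, as batch 2 minus batch 1: Slamf6 by -2.86, P2ry10 by -2.49, Mycn by 0.78 and Lair1 by -1.11. In these genes the shift lay in the PAX5-WT arrays, with 2.76, 2.38, -0.67 and 0.96 between batches, against -0.10, -0.11, 0.12 and -0.16 among the PAX5-Δ2-6 arrays. With PAX5-Δ2-6, P2ry10 (3.09 to 3.38) lay near the lowest deposited value, 2.66. Mycn (13.72 to 13.91) lay near the highest, 14.18. Near these ends of the scale a shift may not show.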

How the results depend on the processing

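PAX5-Δ2-6 against PAX5-WT gave 1195 calls (481 higher, 714 lower). Separate fits over all genes, whose calls need not be among these, gave 589 (249, 340) on plate 2, 588 (222, 366) in isolation batch 1, 706 (298, 408) in isolation batch 2, 576 (232, 344) with only the arrays of these groups and 58 (15, 43) with 4 transduction series. At 1.5-fold or more, 174 of the 1195 (42, 132) were left; the count without 1 array ranged from 902 to 1156 (337 to 465 higher, 565 to 691 lower), and the other alternatives stayed within 1.5 times. A replicate block gave 379 (157, 222), on numbers that did not pair the arrays. Calls among list genes, 86, were 54 on plate 2, 57 in isolation batch 1, 14 with 4 series and 47 with the replicate block. Genes differing between batches, 34, ranged from 6 to 31 without 1 array. PAX5-Δ2-6 against MIR, 0, gave 4 in isolation batch 1, 56 in batch 2, 677 with 3 series, 1 with only these groups and 0 to 1 without 1 array. With 4 series Prdm1 was -0.13 and Tnfaip3 0.0042, reversed and far from called. Only PAX5-G183S replicate 4 links the series of the groups in that fit, so it can hardly estimate their difference. The cause of the reversals was not tested. For the 30 largest differences, 816 of 836 alternative values kept direction and call, 20 lost the call and 0 reversed. These 30 were picked for size in the main fit, whose arrays the alternatives reuse, so the tally is no independent evidence. The share of higher calls was 40.3%, 44.9% after a further quantile normalization and 42.2% with arrays centred on their medians. Dim genes near background limit the folds that can be seen.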

Other observations

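Genes outside the named ones, picked after their values were seen, stand out for their behaviour by batch. Rsad2, the antiviral protein viperin, differed between PAX5-Δ2-6 and PAX5-WT, in fits within each batch, by 0.30 in isolation batch 1 and -1.04 in batch 2, and unlike Slamf6 its shift lay in the PAX5-Δ2-6 arrays (-1.34, against -0.15 for PAX5-WT; batch term adjusted p = 0.00313). Gng2, a G protein subunit, differed by 0.02 and -1.83, and Tgm2, a transglutaminase, by 0.01 and 1.17, with neither called over both batches.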
